A study of Mus musculus with 5 samples.

Results

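The clustered protocadherins are cell-surface adhesion proteins encoded side by side in 3 gene clusters, alpha, beta and gamma, on mouse chromosome 18. The members were all genes of the deposited count table whose symbol places them in 1 of these clusters, which gave 58 of the 22869 gene symbols in the table: 14 alpha, 22 beta and 22 gamma members. Each member had 1 row in the table, and no filter on low counts was applied to them.

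In neurons, each cell is known to switch on a few clustered protocadherin promoters, and the resulting mix of surface proteins lets a neuron tell its own branches from those of other cells. The choice is known to involve DNA methylation of the promoters and binding of the insulator protein CTCF together with cohesin. An alpha or gamma transcript joins the variable first exon of the chosen member to constant exons that all members of that cluster share, whereas a beta member has an exon of its own and no constant exons. The C-type members at the end of the alpha and gamma clusters differ from the rest in being expressed more constitutively in neurons.

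The source was proximal small intestine (jejunum) collected on postnatal day 0, from which intervillus cells, the proliferating epithelium between villi, were laser-captured. The mutant group (genotype Dnmt1 L/L; VillinCre; 2 libraries, numbered 4 and 6) carries a homozygous floxed allele of Dnmt1, the maintenance DNA methyltransferase, with Cre driven by the villin promoter of gut epithelium, so cells other than epithelium are not targeted. The control group (genotype Dnmt1 L/+; 3 libraries, numbered 1, 2 and 3) came from littermates, and its labels name no Cre. Mutant areas were taken where neighbouring sections lacked Ki67 staining and control areas where they had it, so genotype and proliferative state cannot be told apart here. Nothing in the labels ties the libraries to different animals. The p-values therefore reflect the scatter among these 5 libraries alone, and that scatter may be technical. In the reported test the scatter was shared among genes of a like level, not taken from each gene by itself.

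Counted with 1 row per gene, the mutant libraries held 8730268 and 10260760 reads and the control libraries between 10530200 and 13356901. Dnmt1 itself stood at 49.5 and 52.9 CPM in the mutants, against 163, 169 and 124 CPM in the controls, where CPM is a read count scaled to library depth after TMM normalization. Xist had 10179 and 8277 reads in the mutants and 42 to 72 in the controls. Together, 4 Y-linked genes had 4 and 3 reads in the mutants and 2710 to 3160 in the controls. Sex-linked transcripts thus separate the groups completely. Sex and genotype cannot be told apart in any comparison below, including those of genes on other chromosomes. The 8 epithelial markers, Epcam and Cdh1 among them, summed to 5256 and 5028 CPM in the mutants and to between 5169 and 5449 CPM in the controls, and none was at 0 in any library. Markers of mesenchyme and smooth muscle summed to 2740 and 2512 CPM in the mutants and to between 1676 and 1812 CPM in the controls. Of these 15 markers, 11 rose, 0 fell and none was at 0 in any library. Over all genes tested, 6.32% rose and 4.46% fell. Of 19 markers of enteric neurons and glia, 5 rose and 1 fell, with sums of 152 and 159 CPM in the mutants and 127 to 150 CPM in the controls. The 1 that fell, Erbb3, held much of these sums (61.0 and 68.2 CPM in mutants, 76.8 to 105 CPM in controls), and the other 18 summed to 90.8 and 90.4 CPM in the mutants, against 45.2, 50.3 and 37.2 CPM in the controls. Prph and Chat were at 0 in at least 1 library, and the other neural markers were above 0 in all 5 libraries. Endothelial markers summed to 380 and 353 CPM in the mutants and 276 to 323 CPM in the controls. Immune markers summed to 512 and 437 CPM in the mutants and 276 to 289 CPM in the controls. The only immune marker that rose, Csf1r, held much of the mutant sums (229 and 209 CPM in mutants, 54.0 to 92.3 CPM in controls). The other 8 did not pass. No sum without Csf1r was formed, so the gap between the groups in the immune sums may rest on that gene alone. None of either list was at 0 in any library, and 0 of 9 endothelial and 1 of 9 immune markers rose. The part of these cells in the protocadherin values below was not tested, and in such bulk samples fewer cells of a type cannot be told apart from less RNA per cell.

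A single member, Pcdhb2, passed the test between the groups. Of the 58 members, 1 was called higher in the mutants and 0 lower by edgeR's quasi-likelihood test with Benjamini-Hochberg adjustment over all 20379 genes with at least 1 read, at an adjusted p under 0.05. Across all genes tested, 6.32% were called higher and 4.46% lower by the same rule. Per cluster the calls were 0 of 14 alpha, 1 of 22 beta (4.55%) and 0 of 22 gamma members, which is no more than the share among all genes. At an unadjusted p under 0.05, 3 beta, 17 gamma and 0 alpha members were higher and 0 members lower, where 11.3% of all genes were higher at that level; the gamma rows repeat the same reads, as described below, and are not 17 observations.

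**Figure D1:**
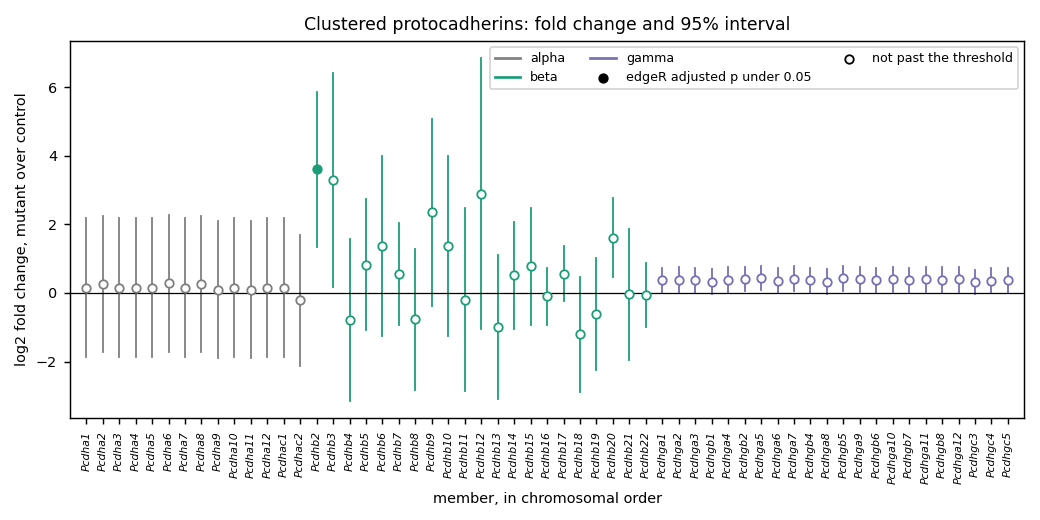
Log2 fold change of mutant over control libraries (vertical axis) with its 95% interval for 57 members in chromosomal order; Pcdhb1 is left out because both groups were at or under 3 reads. Filled points passed an edgeR adjusted p of 0.05: Pcdhb2 alone, while the alpha intervals span 0 and the gamma points lie together between 0.32 and 0.43.

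The beta members, each with a promoter and exon of its own, could be read separately, and they were weakly expressed. Their total count over all 5 libraries lay between 3 and 222 reads with a median of 36, and 7 members were at 0 in at least 1 library. In the GENCODE M21 annotation (assembly GRCm38; the authors' build was mm9), every beta member has 1 exon, of 2588 to 8695 bases, and Pcdhb21 and Pcdhb22 overlap by 455 bases, so reads there can belong to either. Beta exons are also similar in sequence, and the labels do not say how reads that fit several members were placed.

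Pcdhb2 had 12 and 14 reads in mutants 4 and 6, against 2, 2 and 0 reads in controls 1, 2 and 3. Both mutants lay well above every control, and the groups did not overlap. Its level was 1.39 and 1.41 CPM in the mutants, against 0.145, 0.156 and 0 CPM in the controls. The fitted difference was 12.2-fold with a 95% interval of 2.55 to 58.2, or 3.61 ± 1.15 in log2 units (estimate ± SE; edgeR adjusted p = 0.0209). By reads alone the ratio was 13.1 (exact 95% interval 4.55 to 51.8, which covers counting error only, as do all ratios by reads below). Leaving out single libraries ended the call in 4 of 5 cases, with an edgeR adjusted p of 0.0685 without control 1, 0.0783 without control 3, 0.111 without mutant 4 and 0.134 without mutant 6. The log2 fold change stayed between 3.13 and 3.97 over the 5 fits. With a mutant left out, the lone mutant library is assumed to vary like the controls. The call was also lost on the deposited FPKM with a pseudocount of 1 (limma adjusted p = 0.095).

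Pcdhb20 came next. It had 26 and 32 reads in the mutants, against 10, 17 and 11 in the controls. Both mutants exceeded all controls, at 3.12 ± 0.148 CPM in mutants (SD, n = 2) and 1.02 ± 0.299 CPM in controls (SD, n = 3). The fitted difference was 3.04-fold (95% interval 1.37 to 6.75) and missed the threshold (edgeR adjusted p = 0.056). It passed with upper quartile scaling, with the edgeR exact test and without control 2 (adjusted p = 0.0492, 0.0356 and 0.0475), and in the other 14 alternatives it did not. With DESeq2 the adjusted p was 0.11. On the deposited FPKM the groups overlapped, at 0.329 and 0.780 in the mutants and 0.0878, 0.595 and 0.391 in the controls, with log2 fold changes of 0.20 and 0.62 at pseudocounts of 1 and 0.1 (limma adjusted p = 0.729 and 0.749).

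Pcdhb3 had 3 and 9 reads in the mutants and 0, 1 and 1 in the controls, and the groups did not overlap. The ratio by reads was 12.1 (exact 95% interval 2.70 to 111) and the edgeR adjusted p was 0.198. Pcdhb12 had 4 and 1 reads in the mutants and 0, 0 and 1 in the controls, a ratio of 10.1 by reads (exact 95% interval 1.13 to 478). Pcdhb1 had 2 and 1 reads in the mutants and 0 in every control, which gives no fold at this depth. Pcdhb3 and Pcdhb12 are named here after their values were seen.

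The members with the most beta reads overlapped between the groups. Pcdhb17 had 23 and 72 reads in the mutants and 50, 39 and 38 in the controls. Its mutants therefore lay on either side of the controls, at 2.66 and 7.25 CPM against 3.04 to 3.63 CPM in the controls (log2 fold change 0.56 ± 0.41; edgeR adjusted p = 0.472). Pcdhb16 was split the other way, with 45 reads in mutant 4 and 23 in mutant 6, against 56, 51 and 43 reads in the controls. Pcdhb16 was 3.76 ± 2.05 CPM in mutants and 4.00 ± 0.0624 CPM in controls, so the mutant libraries differed from each other far more than the controls did (log2 fold change -0.10 ± 0.42; edgeR adjusted p = 0.918). For Pcdhb22, 21 and 32 reads were counted in the mutants and 50, 40 and 23 in the controls (log2 fold change -0.07 ± 0.47; edgeR adjusted p = 0.951). The 95% intervals still allow from 0.528-fold to 1.66-fold for Pcdhb16 and from 0.503-fold to 1.81-fold for Pcdhb22. They rest on a spread shared by genes of a like level, so the gap between the Pcdhb16 mutants hardly enters its interval. The log2 fold change of Pcdhb16 was 0.38 without mutant 6 and -0.78 without mutant 4.

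Pcdhb7 had 11 and 14 reads in the mutants and 16, 15 and 4 in the controls. Scaled to depth, both mutants were above the controls, by a small margin and with an edgeR adjusted p of 0.734. Pcdhb14 had 13 and 10 reads in the mutants and 12, 5 and 15 in the controls, and the groups overlapped (edgeR adjusted p = 0.765). Some weaker members came from a single mutant library: Pcdhb9 had 13 reads in mutant 4 and 0 in mutant 6, against 2, 0 and 3 in the controls, and Pcdhb10 had 0 in mutant 4 and 11 in mutant 6, against 5, 1 and 2 in the controls. Pcdhb15 likewise had 2 reads in mutant 4 and 20 in mutant 6, against 7, 13 and 5 in the controls. These 3 are named after their values were seen.

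**Figure D2:**
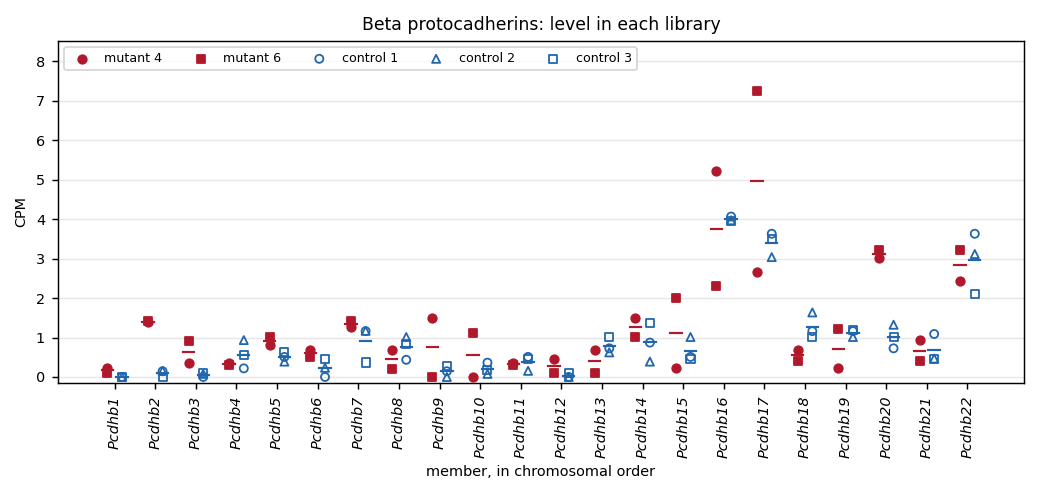
Level (CPM) of the 22 beta members in each library, in chromosomal order, with mutants as filled red and controls as open blue symbols; short lines are group means. Pcdhb2 and Pcdhb20 have both mutants above all controls, while the mutants lie on either side of the controls for Pcdhb16 and Pcdhb17.

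Over the beta cluster, 13 members had a positive and 9 a negative log2 fold change, with a median of 0.56 (also 0.56 without Pcdhb1), where the median over all genes tested was -0.05. Both mutants lay above all controls in 8 of 22 members (36.4%), against 17.6% of all genes, and below them in 1 member, Pcdhb18, against 18.1% of all genes. The 8 were Pcdhb1, Pcdhb2, Pcdhb3, Pcdhb5, Pcdhb6, Pcdhb7, Pcdhb12 and Pcdhb20. Pcdhb5, Pcdhb6, Pcdhb7 and Pcdhb12 lay apart only after scaling to depth, not in reads, and Pcdhb1 rests on 3 reads in all. Pcdhb18 had 6 and 4 reads in the mutants and 16, 21 and 11 in the controls (log2 fold change -1.21 ± 0.86; edgeR adjusted p = 0.453). The summed level of the 22 members was 25.7 and 28.5 CPM in the mutants, against 21.1, 20.8 and 20.02 CPM in the controls, a ratio of means of 1.31. In reads the groups overlapped, with sums of 222 and 283 in the mutants and 290, 267 and 218 in the controls. No test was run on this sum.

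Per kilobase of annotated transcript, Pcdhb17 and Pcdhb16 were among the first 3 beta members in both groups. In the mutants Pcdhb17 led with 1.06 CPM per kb, followed by Pcdhb20 (0.876), Pcdhb16 (0.720), Pcdhb2 (0.498) and Pcdhb22 (0.428). In the controls Pcdhb16 (0.765 CPM per kb) and Pcdhb17 (0.727) led, followed by Pcdhb22 (0.447) and Pcdhb20 (0.287), and Pcdhb2 stood at 0.0357. The library values of Pcdhb16 and Pcdhb17 overlapped in both groups, so their order is not resolved.

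The gamma members were the most highly counted, but most of those reads fell in sequence that the whole cluster shares. Per GENCODE M21, each gamma member has 4 exons, of which 3 are shared, and all 3 constant exons together span 2119 bases in 17 of the 22 and 2116 in 4. Pcdhgb8 shares only 375 bases in that annotation, yet its row averaged 389.8 reads over the libraries, close to the 388.0 of the lowest gamma row by mean; which gene model the authors counted for it is not given in the labels. The lowest gamma row of a library held 370 and 376 reads in the mutants and 442, 380 and 355 reads in the controls. The highest row held 465 and 467 reads in the mutants and 577, 483 and 448 in the controls, so the lowest row was 0.796 and 0.805 of the highest in the mutants and 0.766 to 0.792 of it in the controls. A fold change of any gamma row is thus mainly a fold change of the shared exons, and the 22 rows count as nearly the same measurement.

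Read as 1 measurement, the shared gamma signal was somewhat higher in the mutants and did not pass the test. The lowest row stood at 42.9 and 37.9 CPM in the mutants, against 32.1, 29.6 and 32.6 CPM in the controls, a ratio of means of 1.28. Both mutants lay above all controls in 22 of 22 rows; given the shared reads this is 1 non-overlap, of a kind seen in 17.6% of all genes. The log2 fold changes of the rows ran from 0.32 to 0.43 with standard errors of 0.175 to 0.187, and their edgeR adjusted p-values from 0.118 to 0.315. The 95% intervals of the rows reached down to -0.04 and up to 0.79 on the log2 scale.

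Pcdhgc3, a C-type member, was the gamma gene with the most reads of its own. Its row had 465 and 467 reads in the mutants, against 577, 483 and 448 in the controls (50.4 ± 4.84 CPM in mutants and 40.2 ± 2.27 CPM in controls; log2 fold change 0.33 ± 0.18; edgeR adjusted p = 0.269). Reads beyond the lowest gamma row of the same library can come only from a member's own exon, if every read in a constant exon was counted in full for every row, which the labels do not state. For Pcdhgc3 this excess was 95 and 91 reads in the mutants, against 135, 103 and 93 in the controls, which is 11.0 and 9.16 CPM in the mutants and 9.80, 8.03 and 8.54 CPM in the controls. The groups overlapped and the ratio of means was 1.15, with no test run on the excess.

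No other gamma member came close to Pcdhgc3 in any library. The next highest excess in a library was 44 and 33 reads in the mutants and 40, 17 and 24 in the controls, so Pcdhgc3 exceeded it 2.16 and 2.76 times in the mutants and 3.38 to 6.06 times in the controls. Per kilobase, the excess of Pcdhgc3 was 21.2% and 19.97% of the lowest row's density over the constant exons in the mutants, and 21.6% to 25.2% of it in the controls.

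The other 21 gamma members had excesses summed over the libraries of 17 to 131 reads. Pcdhgb5 had an excess of 44 and 28 reads in the mutants, against 38, 4 and 17 in the controls. In Pcdhga5 it was 42 and 33 reads in the mutants and 29, 8 and 17 in the controls. Pcdhga10 followed with 33 and 22 reads in the mutants and 26, 17 and 15 in the controls, and Pcdhga7 with 43 and 16 in the mutants and 39, 2 and 8 in the controls. Scaled to depth, both mutants lay above all controls for Pcdhgb5, Pcdhga5 and Pcdhga10, and overlapped them for Pcdhga7. The margin was narrow for Pcdhgb5 (5.10 and 2.82 CPM in mutants, 0.312 to 2.76 CPM in controls). In reads, the groups overlapped for Pcdhgb5 and Pcdhga10. Among all genes, both mutants lay above all controls in 17.6% of whole rows. The excesses of these members are measured from the same lowest row in a library, so they are not separate observations. Their whole rows did not pass the test, with edgeR adjusted p-values of 0.118 for Pcdhga5, 0.13 for Pcdhgb5, 0.145 for Pcdhga7 and 0.177 for Pcdhga10. The other C-type members were near the floor of the cluster: Pcdhgc4 had an excess of 12 and 0 reads in the mutants and 19, 2 and 7 in the controls, and Pcdhgc5 of 0 and 15 in the mutants and 15, 3 and 0 in the controls. Pcdhga1 was the lowest row by mean count, with 374 and 382 reads in the mutants and 444, 380 and 360 in the controls.

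The gamma members other than Pcdhgc3 made up more of the excess in both mutants than in any control, by a narrow margin and with no test run. Pcdhgc3 was 18.4% and 23.3% of the summed gamma excess in the mutants, against 24.6%, 39.0% and 30.7% in the controls. The excess of the 21 other members summed to 48.6 and 30.2 CPM in the mutants, against 30.0, 12.5 and 19.3 CPM in the controls, so mutant 6 and control 1 had nearly the same value. In 18 of these 21 the mean excess in CPM was higher in the mutants, and in 3 lower; all are measured from the same lowest row in a library, so they are not independent.

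**Figure D3:**
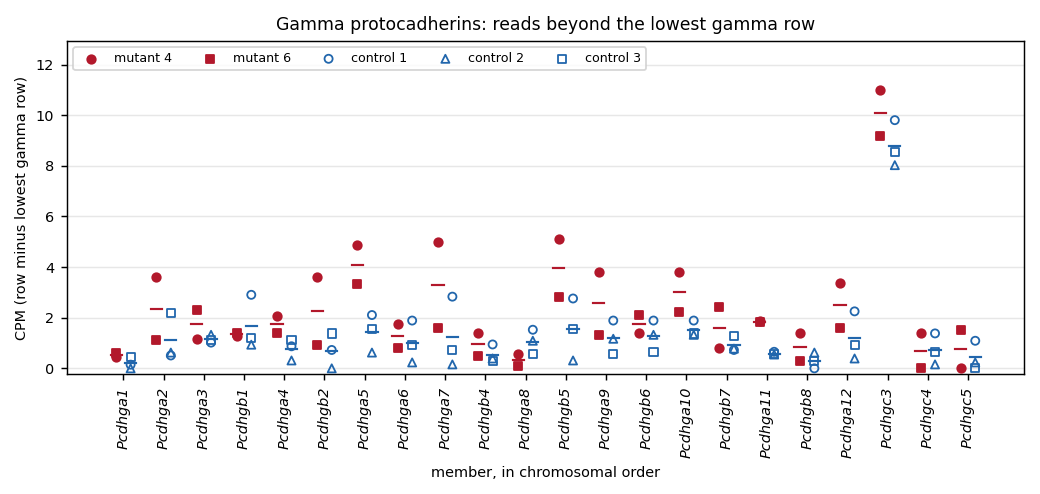
Reads of each gamma row beyond the lowest gamma row of the same library (CPM), in chromosomal order; filled red symbols are mutants, open blue symbols controls and short lines group means. Pcdhgc3 stands at 9.16 to 11.0 CPM in mutants and 8.03 to 9.80 CPM in controls, above every other gamma member in each library.

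The alpha cluster was barely detected. All 14 members have 4 exons in GENCODE M21, of which 3 spanning 2860 bases are shared, and their rows were almost identical: 8 of the 14 had the same count in every library. The lowest alpha row held 4 and 8 reads in the mutants, against 6, 6 and 9 in the controls (0.463 and 0.805 CPM in mutants; 0.436, 0.468 and 0.826 CPM in controls), and the groups overlapped. Pcdha1, tied for the lowest mean count, had exactly these values, as did the C-type member Pcdhac1.

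Own-exon reads were nearly absent from the alpha members. Pcdhac2, the other C-type member, had the highest row, with 4 and 8 reads in the mutants and 7, 6 and 14 in the controls, an excess over the lowest row of 0 and 0 reads in the mutants and 1, 0 and 5 in the controls. Its log2 fold change was -0.22 ± 0.97 (edgeR adjusted p = 0.92). Every other alpha member had at most 1 read of excess over all libraries, Pcdha2 with 1 in mutant 6 and Pcdha11 with 1 in control 2 among them. At 4 to 14 reads a row, the 95% intervals of the alpha rows reached down to -2.12 and up to 2.27 in log2 units. Differences of severalfold are therefore undetectable at this depth.

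**Figure D4:**
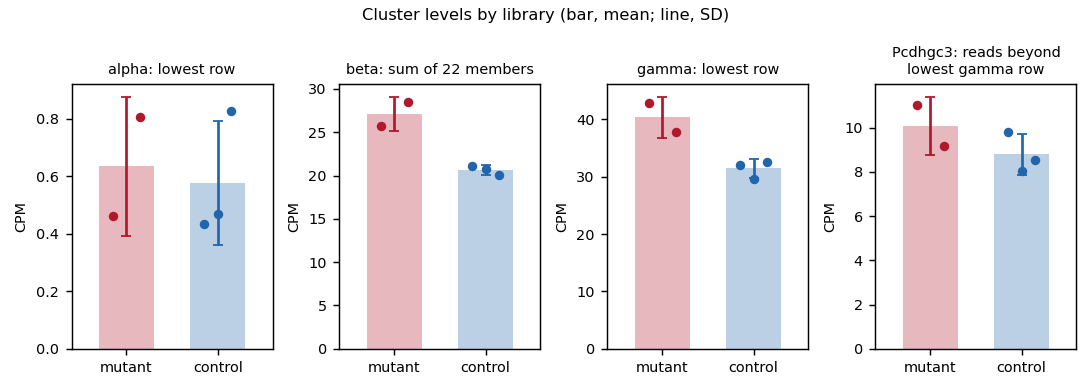
Level in each library (CPM, points) with group mean (bar) and SD (line) for the lowest alpha row, the sum of 22 beta members, the lowest gamma row and the Pcdhgc3 excess. Mutants and controls do not overlap for the beta sum (25.7 and 28.5 CPM in mutants, 20.02 to 21.1 CPM in controls) or the lowest gamma row (37.9 and 42.9 CPM in mutants, 29.6 to 32.6 CPM in controls), and overlap in the other panels. Both gaps appear only after scaling to depth, not in reads. Among all genes, 17.6% had both mutants above all controls in CPM.

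A deposited transcript that joins an alpha variable exon to the start of the gamma constant exons, Pcdha4-g, gave 112 and 81 reads in the mutants, against 122, 91 and 85 in the controls. It lies outside the members' naming pattern. In GENCODE M21 it holds 446 of the 2119 gamma constant bases, and its row lay below the lowest gamma row in every library. The count does not show reads across the join, since reads within the gamma constant bases can be counted there too. The Pcdha4 row itself held no read beyond the lowest alpha row in any library. Pcdha4-g did not pass the test (log2 fold change 0.41 ± 0.30; edgeR adjusted p = 0.468).

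Genes around the clusters were compared by their order in the reference gene table. None of the 10 nearest genes on the alpha side (Zmat2, Hars2, Hars and Ik among them) passed, and neither did Taf7 and Slc25a2, which stand between the beta and gamma clusters. Taf7, a subunit of the general transcription factor TFIID, was 29.2 ± 2.97 CPM in mutants and 34.2 ± 5.64 CPM in controls (edgeR adjusted p = 0.569). On the gamma side 4 of the 10 nearest genes rose and 0 fell (against 6.32% and 4.46% of all genes). They were Rell2 (log2 fold change 1.44 ± 0.47; edgeR adjusted p = 0.0263), Fchsd1 (0.99 ± 0.34; adjusted p = 0.0347), Arap3, a GTPase-activating protein (0.65 ± 0.21; adjusted p = 0.0224), and the non-clustered protocadherin Pcdh1 (0.44 ± 0.15; adjusted p = 0.0312). Diap1 and Hdac3, the histone deacetylase, stand between them and the gamma cluster and did not pass (edgeR adjusted p = 0.143 and 0.429). With edgeR's default filter on low counts only Arap3 of the 4 passed. The count higher was 0 without control 2, 2 without control 1, and 1 without mutant 4 or mutant 6.

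Non-clustered protocadherins, which lie outside the 3 clusters, were also measured; Pcdh1 and Pcdh12 of this list are among the 10 neighbours on the gamma side. Of 12, 2 rose and 0 fell (against 6.32% and 4.46% of all genes) and 10 did not pass, with a median log2 fold change of 0.34. Pcdh1 had 254 and 203 CPM in the mutants, against 177, 152 and 178 CPM in the controls, and both mutants lay above all controls. Pcdh7 had 17.6 and 12.9 CPM in the mutants and 8.79, 6.08 and 12.0 CPM in the controls (log2 fold change 0.77 ± 0.27; edgeR adjusted p = 0.0461). Neither passed with the default filter on low counts (edgeR adjusted p = 0.0658 for Pcdh1 and 0.121 for Pcdh7), and the count higher was 0 without control 1, control 2 or mutant 4, 1 without mutant 6 and 3 without control 3.

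Genes known to act on clustered protocadherin promoters were lower or did not pass. Of 17, 4 fell and 0 rose (against 4.46% and 6.32% of all genes), with a median log2 fold change of -0.25. The 4 include Dnmt1, the floxed gene, whose fall was set by the design and is no observation about these regulators. Besides Dnmt1 (-1.57 ± 0.16; edgeR adjusted p = 3.14e-20) these were its cofactor Uhrf1 (-0.68 ± 0.16; adjusted p = 0.000569), Wiz, a zinc finger protein of H3K9 methylation complexes (-0.66 ± 0.17; adjusted p = 0.00212), and the cohesin subunit Rad21. Rad21 had 160 and 171 CPM in the mutants, against 243, 235 and 257 CPM in the controls (-0.57 ± 0.15; adjusted p = 0.00311). The count that fell was 2 without mutant 4 or without mutant 6, and in these falls, too, genotype cannot be told apart from the choice of areas by Ki67. Ctcf (-0.29 ± 0.15; edgeR adjusted p = 0.269), the chromatin protein Smchd1, which silences clustered protocadherins (-0.14 ± 0.15; adjusted p = 0.643), and the de novo methyltransferase Dnmt3b (0.07 ± 0.23; adjusted p = 0.887) did not pass.

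Among 16 genes for partners and processing, 1 fell and 0 rose (against 4.46% and 6.32% of all genes), with a median of -0.02. The one that fell was Axin1, a scaffold of the beta-catenin destruction complex known to bind the product of Pcdhgc3, with 25.8 and 23.7 CPM in the mutants and 41.7, 35.1 and 39.1 CPM in the controls (log2 fold change -0.64 ± 0.20; edgeR adjusted p = 0.0142). Axin1 did not pass without control 1, mutant 4 or mutant 6. Fyn, a kinase that binds alpha protocadherins, was 41.2 ± 1.78 CPM in mutants and 28.6 ± 2.09 CPM in controls and just missed the threshold (0.53 ± 0.19; adjusted p = 0.0501). The sheddase Adam10, which cuts these proteins, did not pass (edgeR adjusted p = 0.765).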

How the data were processed

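The 2 files deposited by the authors hold unnormalized read counts and FPKM values for the same 28644 transcripts; per the submitters' processing notes, build mm9 and edgeR were used, while the sources used here name no aligner, counter or strand setting. Per the labels' protocols, RNA from laser-captured cells was amplified (Ovation RNA-Seq V2) and read as single reads, so reads are not independent molecules. A flag column with the heading Best was not used, and 0 sample columns were unmatched. Members and lists were chosen with earlier results of these data known.

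The row with the highest mean count stood for each symbol (41 date-like symbols were renamed through their transcripts). The quasi-likelihood test of edgeR 4.0.16 (R 4.3.3, TMM) was fitted on all 20379 genes with at least 1 read, with no low-count filter and no covariate, and adjusted by Benjamini-Hochberg. This fit gave infinite prior degrees of freedom, so genes of a like level share 1 quasi-dispersion; with edgeR's default filter it was 10.4, over 14572 genes, with 32 members fitted (10 beta, 22 gamma, 0 alpha). Standard errors are the log2 fold change over the square root of F. Ratios by reads have exact binomial intervals. Exon structure came from GENCODE M21 by transcript accession (58 of 58 matched), gene order from RefSeq GRCm38.p6. The script was tested on simulated data. Changes were simulated only in genes with higher mean counts than any alpha member or Pcdhb2, so that test does not cover members at such depth. Named members were all C-type members, the highest and lowest row per cluster, called beta members, 5 more beta members by CPM, and the members with the largest excess. Alternatives covered filters, scalings, DESeq2 1.42.0, the edgeR exact test, limma 3.58.1 (voom, and log2 FPKM with a pseudocount of 1 or 0.1), the rows used, and leaving out each library.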

Additional observations from a re-analysis of the deposited data

How the results depend on the processing

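Counts of alpha and gamma members called stayed at 0 in both directions under every alternative run (no alpha member was left to fit under either low-count filter), and so did that of beta members called lower. Beta members called higher numbered 2 with upper quartile scaling and with the exact test, 0 on FPKM with pseudocount 1, and 0 to 2 without each library in turn. Median log2 fold changes of beta members were 0.35 with limma-voom, 0.046 and 0.29 on FPKM (pseudocounts 1 and 0.1) and 0.41 to 0.61 without each library. Those of gamma members were 0.18 and 0.22 on FPKM and 0.27 to 0.47 without each library. Those of alpha members were -0.22 with 1 row per cluster, -0.034 and -0.20 on FPKM, and -0.30 to 0.49 without each library, so their sign is not settled. Ratios of the beta sum, the lowest gamma row and the Pcdhgc3 excess stayed above 1 under every scaling and without each library, at 1.25 to 1.38, 1.204 to 1.36 and 1.04 to 1.25 without each library.

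Genes after the gamma cluster called higher numbered 1 with either low-count filter, 2 without TMM or with DESeq2, 0 with limma-voom or FPKM, and 0 to 4 without each library; lower, 0 to 1. Those before the alpha cluster called higher were 0 to 1 without each library. Non-clustered protocadherins called higher were 0 with either filter, without TMM, with the exact test, limma-voom and FPKM, 1 with DESeq2, and 0 to 3 without each library. Promoter regulators called lower were 0 and 1 on FPKM and 2 to 4 without each library, with 2 left without either mutant. For partners, 1 rose with RLE or upper quartile scaling and 0 to 1 without each library, and the count called lower was 0 with limma-voom and FPKM and 0 to 1 without each library. The cause was not tested. Over all genes, 93 were called higher and 12 lower on FPKM with pseudocount 1, 149 and 33 with pseudocount 0.1, 911 and 432 with limma-voom, and 885 and 596 or 878 and 594 with the default or CPM filter, against 1287 and 909 in the reported test. Without TMM the split was 1113 higher and 1150 lower, and the median log2 fold change of all genes -0.11 against -0.05. Without mutant 4, mutant 6 or control 1 it was 716 and 406, 844 and 452, and 889 and 540. Depth limits the alpha and most beta members, at under 10 reads in many libraries. No paired analysis was possible because the groups share no replicate number.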

Other observations

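The deposited FPKM and counts of weakly expressed members did not move together. Among members with at least 5 reads in 2 or more libraries, the FPKM per CPM of a member should be the same in every library if FPKM were a fixed rescaling of these counts. It differed by more than 2-fold between libraries in 13 of 18 beta members (median 3.14-fold, highest 8.03-fold). It also did so in 14 of 14 alpha members, but in 0 of 22 gamma members (median 1.37-fold). Alpha rows largely repeat the same reads, as gamma rows do, and are not separate observations. Pcdha1 had an FPKM of 0.121 in control 1 and 0.0339 in control 2, at 6 reads in each. It had 0.0539 in control 3 (9 reads) and 0.0563 in mutant 6 (8 reads). Pcdhb15 had 20 reads and an FPKM of 0.789 in mutant 6, against 13 reads and an FPKM of 0.138 in control 2. What made the FPKM differ from the counts was not tested.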
